A study of Mus musculus with 9 samples.

Results

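The genes described here are the protein-coding genes that flank Tcf4 on mouse chromosome 18. They were chosen by position alone, as every protein-coding gene lying wholly between 59.3 and 79.7 Mb of the mm10 build, about 10 Mb to either side of Tcf4, without Tcf4 itself. GENCODE M21 annotates 128 such genes, and 125 of them were matched by Ensembl gene identifier to a row of the deposited table of 41128 genes. The other 3 were not analysed here. In the annotation, 78 of the 125 lie on the side of lower coordinates, called proximal below because mouse chromosomes are numbered from the centromere, and 47 lie on the distal side.

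RNA was sequenced from the dorsal telencephalon, the brain region that gives rise to cortex and hippocampus, of newborn (P0) mice of the strain B6:129SF2/J. There were 3 libraries each from tissue labelled Tcf4 knockout (KO), Tcf4 heterozygote (Het) and wild type (WT). The labels do not say whether a library came from 1 pup, and p-values therefore measure the spread between these libraries, which may be technical. The question put to the flanking genes is whether their expression differs with the labelled Tcf4 genotype, and whether any difference depends on distance from Tcf4.

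Tcf4 is an E protein, a basic helix-loop-helix transcription factor that pairs with proneural partner proteins to drive neuronal differentiation, and loss of 1 copy of the human gene causes the intellectual disability disorder Pitt-Hopkins syndrome. Genes near a targeted allele are inherited together with it. In mice of mixed strain origin the chromosome segment around the allele can therefore come from another strain than the matching segment of the controls. The sources used here do not give the strain in which the allele was made or the part of Tcf4 that was deleted, so the targeted allele and the segment linked to it cannot be told apart in this design.

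Total counts ran from 26355671 to 29445788 in KO libraries, from 24008445 to 29398411 in Het libraries and from 22291940 to 23813314 in WT libraries. Levels are given as CPM, which are counts scaled to a common library size with TMM factors, and changes as log2 fold changes with their standard error (SE). A gene was called when its adjusted p in edgeR's quasi-likelihood test was under 0.05 over the 15271 genes tested. In KO replicate 3, Xist had 2730 counts and Ddx3y 2, while each of the other 8 libraries had at most 3 Xist and at least 794 Ddx3y counts, so 1 library differed in sex from the rest.

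Whole-gene counts of Tcf4 (chromosome 18, 69343356 to 69689079, plus strand) did not differ past the threshold between the labelled genotypes. Tcf4 had 638, 633 and 611 CPM in KO libraries, 822, 652 and 719 CPM in Het libraries and 712, 728 and 584 CPM in WT libraries. KO libraries were below all Het libraries, and WT libraries overlapped both. The log2 fold change was -0.10 (adjusted p = 0.36, SE 0.09) for KO versus WT and 0.12 (adjusted p = 0.33, SE 0.09) for Het versus WT. It was -0.22 (adjusted p = 0.13, SE 0.09) for KO versus Het. Without WT replicate 3, KO versus WT was called at -0.20 (adjusted p = 0.046), and KO versus Het was called without Het replicate 2 (adjusted p = 0.041) or WT replicate 3 (0.043). A sum over all exons need not show a deletion of some of them, and the deleted part was not given. These counts therefore do not check the labels, and why they did not fall in KO was not tested. The genotypes below are those of the labels.

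Of the 125 flanking genes, 101 had enough counts to be tested, 62 proximal and 39 distal, at 0.29 to 9.06 Mb from the nearest end of Tcf4. The filter asks for enough counts in at least 3 libraries, and 98 of the 101 reached its level in every library. The exceptions were Htr4, which missed it in some KO library, and Oacyl and Stard6, which missed it in some WT library. Per length, the tested genes spanned a mean of 0.0533 to 1456 FPKM in WT libraries, with a median of 9.77. The most abundant was Rps14, a protein of the small ribosomal subunit, with a mean of 1544 FPKM in KO, 1516 in Het and 1456 in WT libraries. It was followed by the ribosomal protein gene Rpl17 and the ATP synthase subunit gene Atp5a1, in this order in all 3 genotypes. Rps14 shares 11.7% and Rpl17 46.1% of their 31-base words with transcripts of other genes, which leaves their counts uncertain. In all, 22 of the tested genes share at least 5% of their words, and 25 have exons that overlap a gene on the opposite strand, among those named below Afap1l1, Ccbe1, Nedd4l, Poli, Seh1l, St8sia3, St8sia5 and Txnl1 and others where stated. Whether the counting used strand was not given in the sources used here.

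The 24 genes that were not tested reached at most 20 counts in any library. Among them were Cd74, the invariant chain of antigen-presenting cells, with at most 9 counts, the ciliary gene Cfap53 with at most 20, and Skor2, a corepressor of Purkinje cells, with at most 1. The muscle gene Myoz3, the intestinal transcription factor gene Cdx1, Spink7, Dynap and F830016B08Rik had no count in any library. A count of 0 allows up to 3 counts, which is 0.102 to 0.135 CPM depending on the library, for counting error only.

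The flanking genes differed between KO and WT about as often as protein-coding genes did anywhere in the genome. In KO versus WT, 54 of the 101 tested genes passed (53.5%), with 24 higher and 30 lower in KO, beside 54.1% of the 14021 protein-coding genes tested, 27.0% higher and 27.1% lower. On the rest of chromosome 18, 155 of 266 tested protein-coding genes were called (58.3%). A change of at least 1.5-fold was reached by 25 flanking genes (24.8%), beside 21.5% of protein-coding genes. The libraries of KO and WT did not overlap in 66 flanking genes (65.3%), beside 64.0% of protein-coding genes. The median log2 fold change of the flanking genes was -0.00 and the median of its size 0.27, beside 0.00 and 0.28 over protein-coding genes. The balance of directions turned with the scaling, to 29 higher and 27 lower with upper-quartile factors, 30 and 27 with library totals and 29 and 26 with limma on FPKM. Without KO replicate 3, the calls numbered 48, with 20 higher and 28 lower. In bulk tissue, fewer cells of a type and less RNA per cell cannot be told apart.

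In Het versus WT, 50 of the 101 genes passed (49.5%), with 27 higher and 23 lower in Het, beside 47.2% of protein-coding genes, 23.0% higher and 24.2% lower. The balance of directions moved with the scaling, since upper-quartile factors and plain library totals each gave 34 higher and 17 lower. The rest of chromosome 18 had 126 calls among 266 genes (47.4%). At least 1.5-fold changes were seen in 17 flanking genes (16.8%), beside 15.6% of protein-coding genes. Het and WT libraries did not overlap in 61 genes (60.4%), beside 54.7%. Without Het replicate 2, lower calls numbered 14.

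In KO versus Het, 21 of the 101 genes passed (20.8%), with 5 higher and 16 lower in KO, beside 17.8% of protein-coding genes, 8.78% higher and 8.99% lower. The rest of chromosome 18 had 46 calls among 266 genes (17.3%). Lower calls were more frequent than higher ones among the flanking genes, and the medians differed in the same direction, at a log2 fold change of -0.07 for the flanking genes and 0.00 for protein-coding genes. A change of at least 1.5-fold was seen in 9 flanking genes (8.91%), beside 4.91% of protein-coding genes. KO and Het libraries did not overlap in 41 genes (40.6%), beside 34.6%. The count of calls was 13 without KO replicate 1, 9 of them lower, and the higher calls numbered 3 without KO replicate 2 and 8 without either Het replicate 1 or WT replicate 2.

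**Figure D1:**
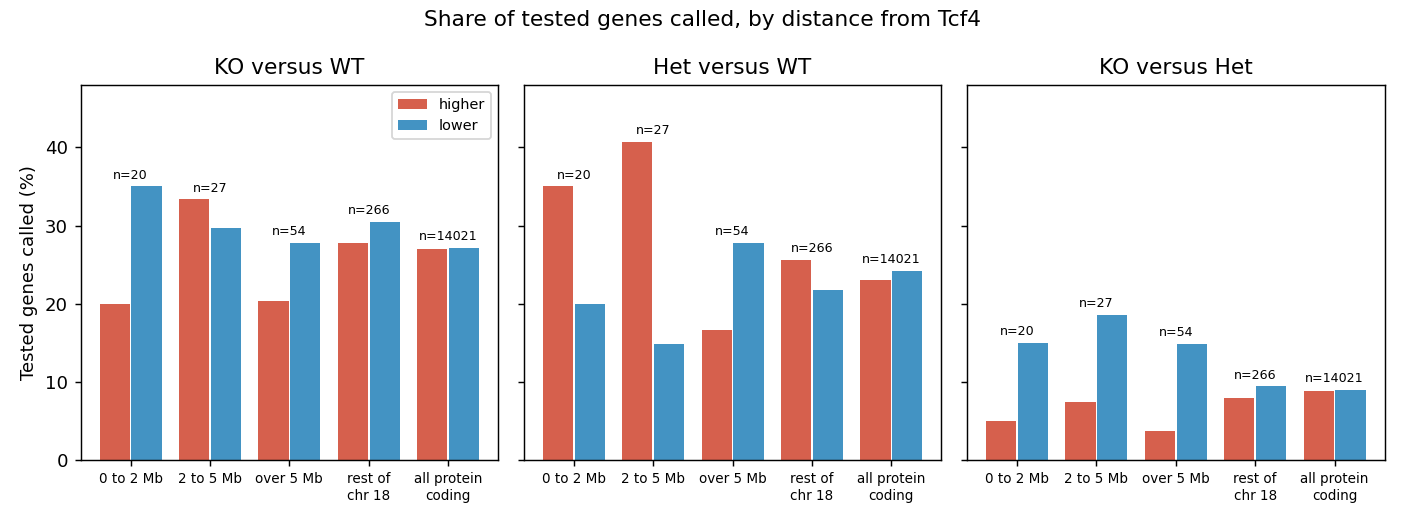
Share of tested genes called at adjusted p under 0.05, higher (red) or lower (blue) in the first-named genotype, for flanking genes at 0 to 2, 2 to 5 and over 5 Mb from Tcf4, for the rest of chromosome 18 and for all protein-coding genes, with the number of genes tested above each pair of bars. In KO versus WT the flanking bins hold 20% to 33.3% higher and 27.8% to 35% lower genes, around the 27.0% and 27.1% of all protein-coding genes.

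In KO versus WT, the share of calls and the size of the changes were highest at 2 to 5 Mb from Tcf4 and did not fall steadily with distance. Within 2 Mb of Tcf4, 11 of 20 tested genes were called (55%), 4 higher and 7 lower, beside 54.1% of protein-coding genes. Between 2 and 5 Mb 17 of 27 were called (63.0%), 9 higher and 8 lower, and beyond 5 Mb 26 of 54 (48.1%), 11 higher and 15 lower. The median size of the log2 fold change was 0.27, 0.37 and 0.25 in these bins, nearest first. In Het versus WT, 7 genes were higher and 4 lower within 2 Mb (55% called), 11 and 4 between 2 and 5 Mb (55.6%) and 9 and 15 beyond 5 Mb (44.4%), beside 47.2% of protein-coding genes. Higher calls there were 35%, 40.7% and 16.7% of the bins, beside 23.0%, and the median size was 0.27, 0.44 and 0.20. Calls in KO versus Het were 4 of 20 (20%), 7 of 27 (25.9%) and 10 of 54 (18.5%), beside 17.8%. The differences between bins were not tested. Across the 101 genes, Spearman's rho between the size of the log2 fold change and distance was 0.03 for KO versus WT, -0.14 for Het versus WT and -0.10 for KO versus Het. These are descriptions across genes of the same libraries, and neighbouring genes are not independent.

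Lower calls in KO versus WT lay mostly on the proximal side. In that comparison, 24 of 62 proximal genes were lower (38.7%) and 10 higher (16.1%), while 6 of 39 distal genes were lower (15.4%) and 14 higher (35.9%), beside 27.1% and 27.0% of protein-coding genes. In Het versus WT the proximal side had 18 lower (29.0%) and 19 higher (30.6%) genes. The distal side had 5 lower (12.8%) and 8 higher (20.5%), beside 24.2% and 23.0% of protein-coding genes. In KO versus Het, 14 of 62 proximal genes (22.6%) and 2 of 39 distal genes (5.13%) were lower, beside 8.99% of protein-coding genes. Higher calls were 4.84% on the proximal and 5.13% on the distal side, beside 8.78%. The difference between sides was not tested.

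**Figure D2:**
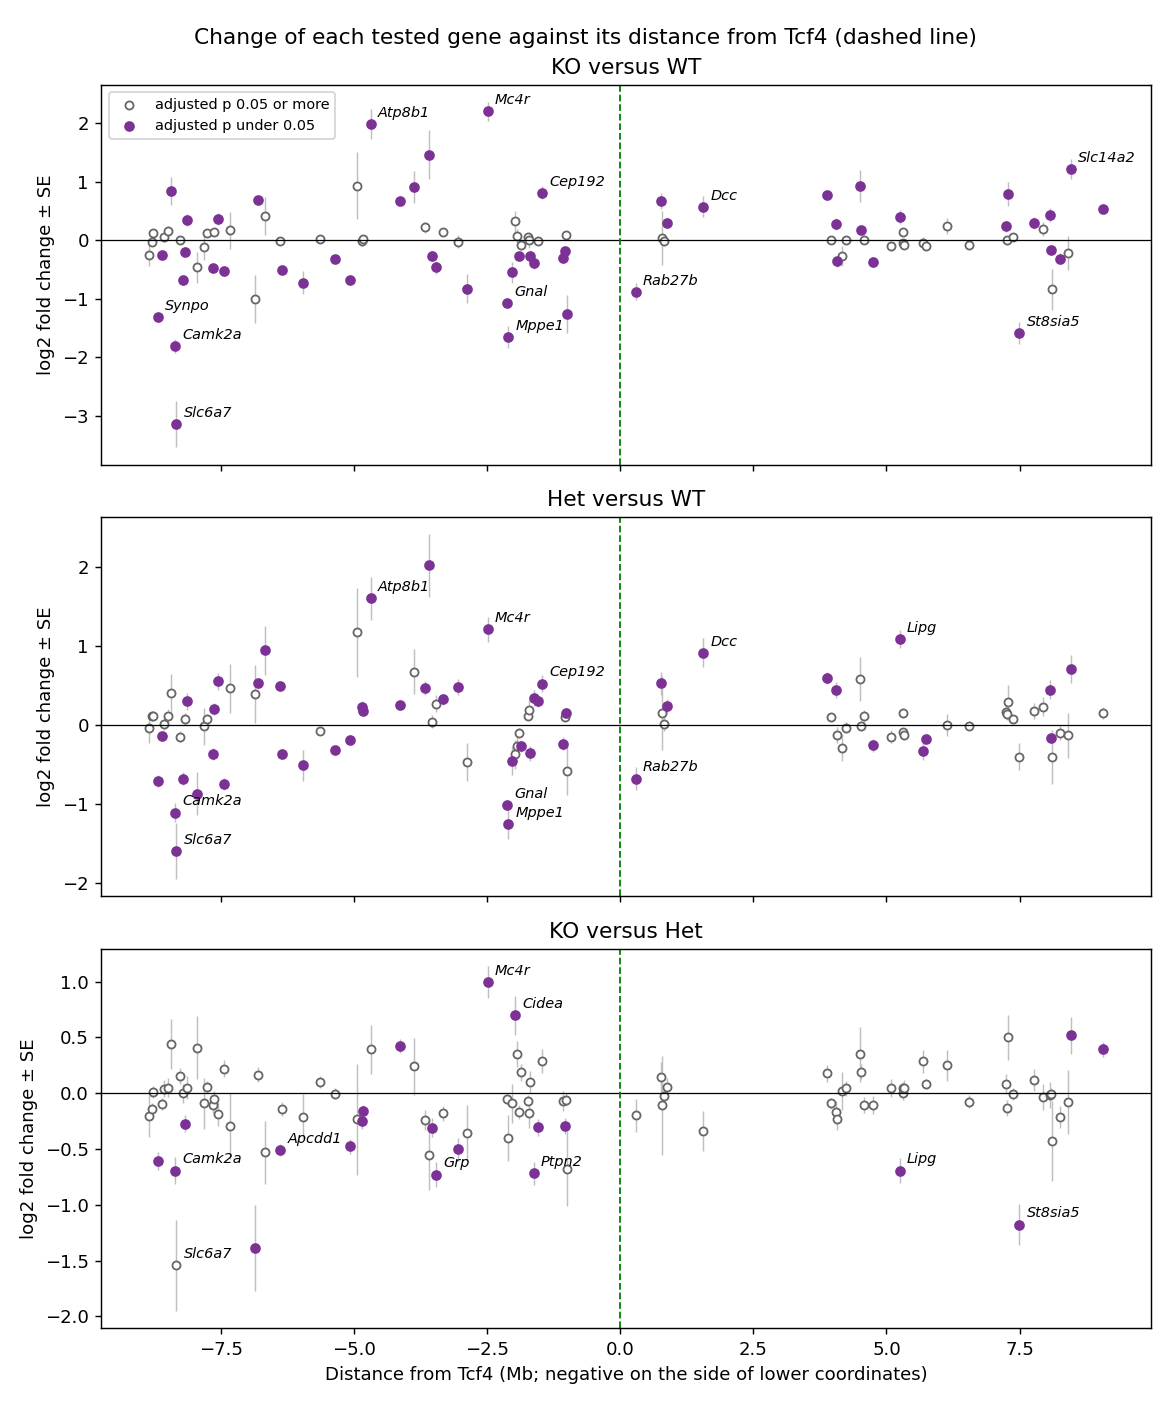
Log2 fold change of each of the 101 tested genes, with its SE, against distance from Tcf4 in Mb, with the proximal side negative and Tcf4 at the dashed line; filled points have adjusted p under 0.05. In KO versus WT, Slc6a7 is lowest at -3.14 and Mc4r highest at 2.20, and both lie on the proximal side.

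The nearest gene with enough counts was lower in both mutant genotypes. Rab27b (chromosome 18, 69979131 to 70141605, minus strand), a small GTPase that docks secretory vesicles, lies 0.29 Mb distal of Tcf4 and had 5.65, 5.22 and 4.85 CPM in KO libraries, 4.96, 7.21 and 5.81 CPM in Het libraries and 9.75, 10.3 and 8.87 CPM in WT libraries. All 6 KO and Het libraries were below all WT libraries. The change was -0.88 (adjusted p = 7.2e-05, SE 0.14) for KO versus WT and -0.68 (adjusted p = 0.00093, SE 0.14) for Het versus WT, and KO and Het overlapped, with a difference of -0.20 and a 95% interval of -0.51 to 0.11.

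The next genes on the distal side did not share that direction. The uncharacterised gene 4930503L19Rik, 0.76 Mb away, had 5.93, 6.44 and 7.54 CPM in KO, 6.03, 5.95 and 6.02 in Het and 3.97, 4.72 and 3.83 in WT libraries, with log2 fold changes of 0.67 (adjusted p = 0.00076, SE 0.14) for KO versus WT and 0.52 (adjusted p = 0.0065, SE 0.14) for Het versus WT. It overlaps exons of Stard6, a lipid transfer gene, on the opposite strand. Stard6 itself had at most 0.768 CPM in any library, was not called in any comparison, and shares 37.4% of its 31-base words with other genes. Poli, the translesion DNA polymerase iota, showed the smallest changes of the distal neighbours, with 12.4, 13.3 and 13.2 CPM in KO, 12.9, 13.5 and 13.1 in Het and 13.01, 13.7 and 12.4 in WT libraries. Its KO versus WT value was -0.01, with a 95% interval of -0.20 to 0.18. Mbd2, which binds methylated CpG sites, was higher in KO at 0.30 (adjusted p = 0.0063, SE 0.08) and in Het at 0.24 (adjusted p = 0.028, SE 0.08), and the Het call was lost without Het replicate 1, WT replicate 1 or WT replicate 3, with adjusted p of 0.058 to 0.13.

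Dcc (chromosome 18, 71253634 to 72351069, minus strand), the netrin receptor that guides commissural axons, is the farthest of the distal genes within 2 Mb and was highest in Het. It had 51.9, 52.02 and 51.96 CPM in KO libraries, 62.1, 61.9 and 73.00 CPM in Het libraries and 46.1, 32.4 and 26.3 CPM in WT libraries. The WT libraries were the lowest and the most spread, and the Het libraries lay above both other genotypes. The log2 fold change was 0.91 (adjusted p = 0.0047, SE 0.18) for Het versus WT and 0.57 (adjusted p = 0.031, SE 0.18) for KO versus WT. The KO call was lost without any 1 of the KO libraries, Het replicate 1 or WT replicate 2 (adjusted p = 0.058 to 0.098). KO versus Het, at -0.34 with adjusted p = 0.26, was not called, and without WT replicate 1 it had adjusted p = 0.012.

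Of the 14 tested proximal genes within 2 Mb, 7 were called in KO versus WT, and Cep192 was the only one of them that was higher. Cep192, a scaffold that recruits material to the centrosome, had 11.96, 12.3 and 13.9 CPM in KO, 10.2, 9.74 and 11.2 in Het and 6.86, 7.26 and 7.62 in WT libraries, so the 3 genotypes did not overlap. The log2 fold change was 0.81 (adjusted p = 1.1e-05, SE 0.11) for KO versus WT and 0.52 (adjusted p = 0.0011, SE 0.11) for Het versus WT. The closest proximal gene, Mc5r, encodes a melanocortin receptor and was low in every library, with 0.662, 0.419 and 0.498 CPM in KO, 0.943, 0.541 and 1.07 in Het and 1.54, 1.203 and 1.08 in WT libraries. Its KO versus WT change of -1.26 (adjusted p = 0.0037, SE 0.33) was the largest fold among these 14.

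The remaining lower calls close to Tcf4 on the proximal side were small. Afg3l2, a protease of the inner mitochondrial membrane, changed by -0.27 (adjusted p = 0.0019, SE 0.06) in KO versus WT, and Ldlrad4, an inhibitor of TGF-beta signalling, by -0.31 (adjusted p = 0.0063, SE 0.09). Ldlrad4 shares 50.3% of its words with other genes and overlaps Fam210a, a mitochondrial protein gene, on the opposite strand. Fam210a was lower in KO than in WT at -0.19 (adjusted p = 0.041, SE 0.07) and lower than in Het at -0.29 (adjusted p = 0.012, SE 0.07), but the first call was lost without any 1 of the 3 KO libraries, WT replicate 1 or WT replicate 2 (adjusted p = 0.063 to 0.12) and the second without KO replicate 1 (adjusted p = 0.059). The first call was also lost with upper-quartile factors, library totals, limma on FPKM and no filter on low counts (adjusted p = 0.064 to 0.17). Psmg2, a proteasome assembly chaperone, was lower in KO at -0.26 (adjusted p = 0.032, SE 0.10) and in Het at -0.36 (adjusted p = 0.0061, SE 0.10). Its KO call was lost without KO replicate 1 or 2 or any 1 of the WT libraries (adjusted p = 0.055 to 0.14).

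Ptpn2 and Seh1l were higher in Het than in either other genotype. Ptpn2, a tyrosine phosphatase that damps JAK-STAT signalling, had 11.1, 10.7 and 12.3 CPM in KO libraries, 16.6, 20.5 and 19.02 CPM in Het libraries and 15.6, 15.4 and 13.5 CPM in WT libraries, and no library of one genotype overlapped another. It was called in each comparison, at -0.38 (adjusted p = 0.0046, SE 0.10) for KO versus WT, 0.33 (adjusted p = 0.012, SE 0.10) for Het versus WT and -0.72 (adjusted p = 9.6e-05, SE 0.10) for KO versus Het. The Het versus WT call was lost without Het replicate 2 (adjusted p = 0.056) or WT replicate 3 (0.068). Seh1l, a nuclear pore protein, had 34.7, 38.2 and 40.4 CPM in KO, 49.9, 45.8 and 44.5 in Het and 36.4, 38.4 and 39.5 in WT libraries. Its change was 0.29 (adjusted p = 0.0043, SE 0.08) in Het versus WT and -0.31 (adjusted p = 0.01, SE 0.08) in KO versus Het, and the second call was lost without KO replicate 1 (adjusted p = 0.071).

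The other genes within 2 Mb moved little or in 1 comparison. Cidea, a lipid droplet protein of brown fat, was higher in KO than in Het at 0.70 (adjusted p = 0.011, SE 0.18), with 3.07, 3.43 and 2.66 CPM in KO, 1.97, 1.83 and 1.83 in Het and 2.44, 2.54 and 2.32 in WT libraries, a call lost without KO replicate 2 (adjusted p = 0.068). Prelid3a, a mitochondrial lipid carrier, was lower in Het than in WT at -0.27 (adjusted p = 0.0092, SE 0.08), and that call was lost without Het replicate 2 (adjusted p = 0.062) or WT replicate 3 (0.074). Rnmt, the mRNA cap methyltransferase, was higher in Het at 0.15 (adjusted p = 0.039, SE 0.06), a call lost without Het replicate 1 or 2 or any 1 of the WT libraries (adjusted p = 0.063 to 0.11). The actin nucleator Spire1, the centriolar protein gene Cep76 and the tubulin gene Tubb6 were not called in any comparison. Spire1 passed in Het versus WT without Het replicate 3 (0.15, adjusted p = 0.026). Tubb6 passed in Het versus WT without WT replicate 2 (adjusted p = 0.036) and in KO versus Het without WT replicate 2 (0.044) or Het replicate 1 (0.046).

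**Figure D3:**
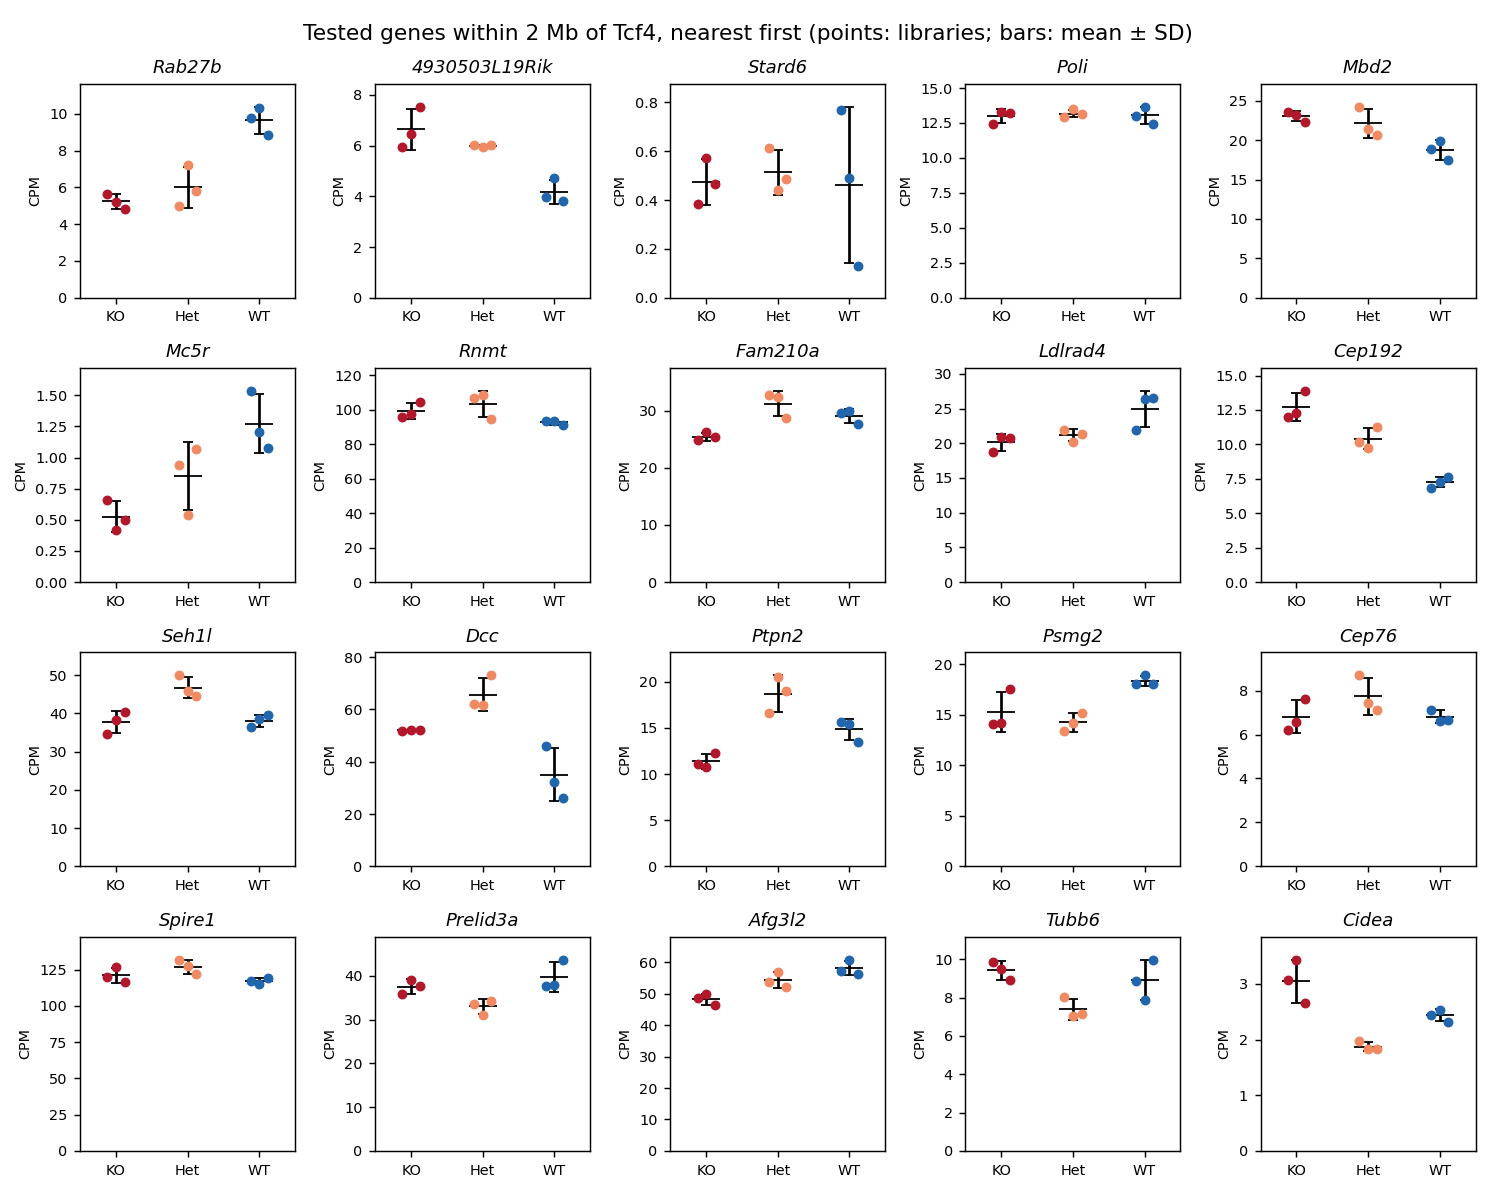
CPM of the 20 tested genes within 2 Mb of Tcf4, nearest first, with 1 point per library and bars for the mean and SD of 3 KO (dark red), 3 Het (orange) and 3 WT (blue) libraries. Rab27b is lower in every KO and Het library than in any WT library, Cep192 is stepped from KO to WT without overlap, and Poli is level.

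Neuronal signalling and axon genes had the highest share of calls in KO versus WT among the 7 lists of genes by role. The lists were chosen with earlier results of these data known, so the order of the lists is a description and not a test. Of 22 in the window 19 were tested, and in KO versus WT 4 were higher and 11 lower (78.9% called), with a median log2 fold change of -0.53, beside 54.1% called and a median of 0.00 over protein-coding genes. In Het versus WT 3 were higher and 8 lower (57.9%, beside 47.2%) with a median of -0.20, and in KO versus Het 2 were higher and 6 lower (42.1%, beside 17.8%) with a median of -0.30.

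Mc4r had the largest rise of any flanking gene in KO versus WT. Mc4r (chromosome 18, 66857704 to 66860506, minus strand) encodes the melanocortin receptor through which hypothalamic neurons limit appetite, and lies 2.48 Mb proximal of Tcf4. It had 39.7, 40.7 and 51.96 CPM in KO libraries, 25.8, 23.2 and 17.4 CPM in Het libraries and 8.76, 10.4 and 9.55 CPM in WT libraries. The genotypes did not overlap, and each KO library held more than any Het library and each Het library more than any WT library. The change was 4.61-fold for KO versus WT, a log2 fold change of 2.20 (adjusted p = 6.5e-07, SE 0.16). Het versus WT gave 1.21 (adjusted p = 0.00012, SE 0.16) and KO versus Het 0.996 (adjusted p = 0.00091, SE 0.14). Of the other melanocortin receptor genes in the window, Mc5r was lower in KO as given above, and the corticotropin receptor gene Mc2r had too few counts to be tested.

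Slc6a7 and Camk2a lie beside each other, 8.33 and 8.36 Mb proximal of Tcf4, and had the largest falls of the flanking genes in KO versus WT. Slc6a7 (chromosome 18, 60995380 to 61014222, minus strand), a proline transporter of glutamatergic nerve terminals, had 4.39, 3.77 and 3.82 CPM in KO libraries, 7.62, 18.8 and 8.33 CPM in Het libraries and 41.5, 28.5 and 35.8 CPM in WT libraries. Every KO library was below every Het library and every Het library below every WT library, with Het replicate 2 well above the other Het libraries. It was 8.81-fold lower in KO than in WT (-3.14 (adjusted p = 0.00069, SE 0.40)), and Het versus WT gave -1.60 (adjusted p = 0.011, SE 0.36). KO versus Het was -1.54 with adjusted p = 0.0501. It was -1.01 with adjusted p = 0.00058 without Het replicate 2 and -1.77 with adjusted p = 0.036 without Het replicate 1.

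Camk2a (chromosome 18, 60925618 to 60988152, plus strand), the alpha subunit of the calcium and calmodulin dependent kinase of excitatory synapses, had 65.8, 65.8 and 54.4 CPM in KO libraries, 91.9, 110.0 and 98.6 CPM in Het libraries and 252, 193 and 205 CPM in WT libraries. Its genotypes did not overlap, and the change was -1.81 (adjusted p = 2.2e-06, SE 0.12) for KO versus WT, -1.11 (adjusted p = 7.3e-05, SE 0.12) for Het versus WT and -0.69 (adjusted p = 0.0045, SE 0.12) for KO versus Het. Per length it averaged 30.5 FPKM in KO, 49.9 in Het and 104 in WT libraries. The same order held for Synpo (chromosome 18, 60593973 to 60660142, minus strand), the actin-binding protein of the spine apparatus, with 13.9, 13.02 and 14.4 CPM in KO libraries, 20.8, 21.7 and 20.7 CPM in Het libraries and 32.4, 36.7 and 34.2 CPM in WT libraries. Its changes were -1.32 (adjusted p = 6.4e-10, SE 0.08) for KO versus WT, -0.71 (adjusted p = 1.3e-06, SE 0.08) for Het versus WT and -0.61 (adjusted p = 4.3e-05, SE 0.08) for KO versus Het.

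Gnal was lower in both mutant genotypes. Gnal (chromosome 18, 67088216 to 67226792, plus strand) encodes the G protein alpha subunit that couples dopamine and adenosine receptors to adenylyl cyclase in striatal neurons, and had 176, 178 and 178 CPM in KO libraries, 192, 188 and 172 CPM in Het libraries and 369, 379.6 and 372 CPM in WT libraries. All WT libraries stood above the other 6, and KO and Het overlapped. It changed by -1.08 (adjusted p = 6.4e-11, SE 0.05) in KO versus WT and -1.02 (adjusted p = 2.1e-10, SE 0.05) in Het versus WT. KO versus Het was -0.05, with a 95% interval of -0.16 to 0.06. Gnal overlaps Mppe1 on the opposite strand. Mppe1, a phosphoesterase that remodels GPI anchors, had 1.19, 1.37 and 1.096 CPM in KO, 1.56, 1.79 and 1.45 in Het and 4.06, 4.05 and 3.400 in WT libraries, with changes of -1.66 (adjusted p = 2e-06, SE 0.19) in KO versus WT and -1.26 (adjusted p = 4.3e-05, SE 0.19) in Het versus WT, and shares 27.4% of its words with other genes.

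Striatal neuron markers were also lower in both mutant genotypes. Their summed level over 8 genes was 60.8 to 64.7 CPM in KO, 59.8 to 73.6 CPM in Het and 305 to 334 CPM in WT libraries, with 7 of 8 lower in KO versus WT and 8 of 8 lower in Het versus WT. KO and Het overlapped in that sum, as they did in Gnal, while Camk2a, Slc6a7 and Synpo were lower in KO than in Het without overlap. The 7 cortical excitatory markers summed to 2002 to 2084 CPM in KO, 1892 to 2152 CPM in Het and 1732 to 1983 CPM in WT libraries, with 3 higher and 2 lower in KO versus WT. Of these, Slc17a7, the vesicular glutamate transporter of cortical neurons, averaged 62.5 CPM in KO, 108 in Het and 213 in WT libraries, with -1.77 (adjusted p = 3.5e-13) for KO versus WT. The 7 interneuron markers summed to 430 to 465 CPM in KO, 436 to 488 CPM in Het and 542 to 616 CPM in WT libraries. Of the 7, 1 was higher and 5 lower in KO versus WT, and likewise 1 and 5 in Het versus WT. The part of these cells in the changes of Gnal, Camk2a, Slc6a7 and Synpo was not tested.

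The 2 sialyltransferase genes in the window, which add sialic acid to glycans and gangliosides of neurons, were both lower in KO. St8sia5 (chromosome 18, 77185839 to 77258771, plus strand) had 2.48, 2.21 and 2.52 CPM in KO libraries, 4.39, 4.91 and 7.02 CPM in Het libraries and 7.95, 7.75 and 5.98 CPM in WT libraries. KO libraries were below all others, while Het and WT overlapped. The change was -1.58 (adjusted p = 2.1e-06, SE 0.19) for KO versus WT and -1.18 (adjusted p = 0.00031, SE 0.19) for KO versus Het, and Het versus WT at -0.41 (adjusted p = 0.066) was called only without Het replicate 3 (-0.63) or WT replicate 3 (-0.53) among the libraries left out. St8sia3 had 46.7, 50.04 and 53.8 CPM in KO, 73.1, 69.9 and 66.7 in Het and 84.99, 77.6 and 77.5 in WT libraries, with -0.67 (adjusted p = 2.9e-07, SE 0.07) for KO versus WT and -0.48 (adjusted p = 8.5e-05, SE 0.07) for KO versus Het. Its Het versus WT change of -0.20 (adjusted p = 0.022, SE 0.07) was lost without Het replicate 2, Het replicate 3 or WT replicate 1 (adjusted p = 0.065 to 0.11). That call was also lost with upper-quartile factors, library totals and limma on FPKM (adjusted p = 0.055 to 0.12).

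Nedd4l and Rnf165 were higher in KO. Nedd4l (chromosome 18, 64887705 to 65217828, plus strand) encodes a ubiquitin ligase that removes sodium channels and SMAD proteins, and had 272, 281 and 266 CPM in KO libraries, 205, 193 and 211 CPM in Het libraries and 178, 182 and 152 CPM in WT libraries. No genotype overlapped another, and the log2 values were 0.68 (adjusted p = 2.1e-07, SE 0.06) for KO versus WT, 0.25 (adjusted p = 0.0044, SE 0.06) for Het versus WT and 0.43 (adjusted p = 0.00021, SE 0.06) for KO versus Het. Rnf165, a ubiquitin ligase that enhances BMP signalling in motor axons, had 185, 184 and 179 CPM in KO, 202, 147 and 155 in Het and 145, 155 and 146 in WT libraries. Its KO versus WT change of 0.29 (adjusted p = 0.028, SE 0.10) was lost without any 1 of the KO libraries or WT replicate 1 or 3 (adjusted p = 0.058 to 0.095). It was called in Het versus WT only without Het replicate 2 (0.28, adjusted p = 0.019) and in KO versus Het only without Het replicate 1 (0.27, adjusted p = 0.0040). Grp, which encodes gastrin-releasing peptide, was lower in KO than in both other genotypes, at -0.46 (adjusted p = 0.0027, SE 0.11) against WT and -0.73 (adjusted p = 0.00028, SE 0.11) against Het.

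**Figure D4:**
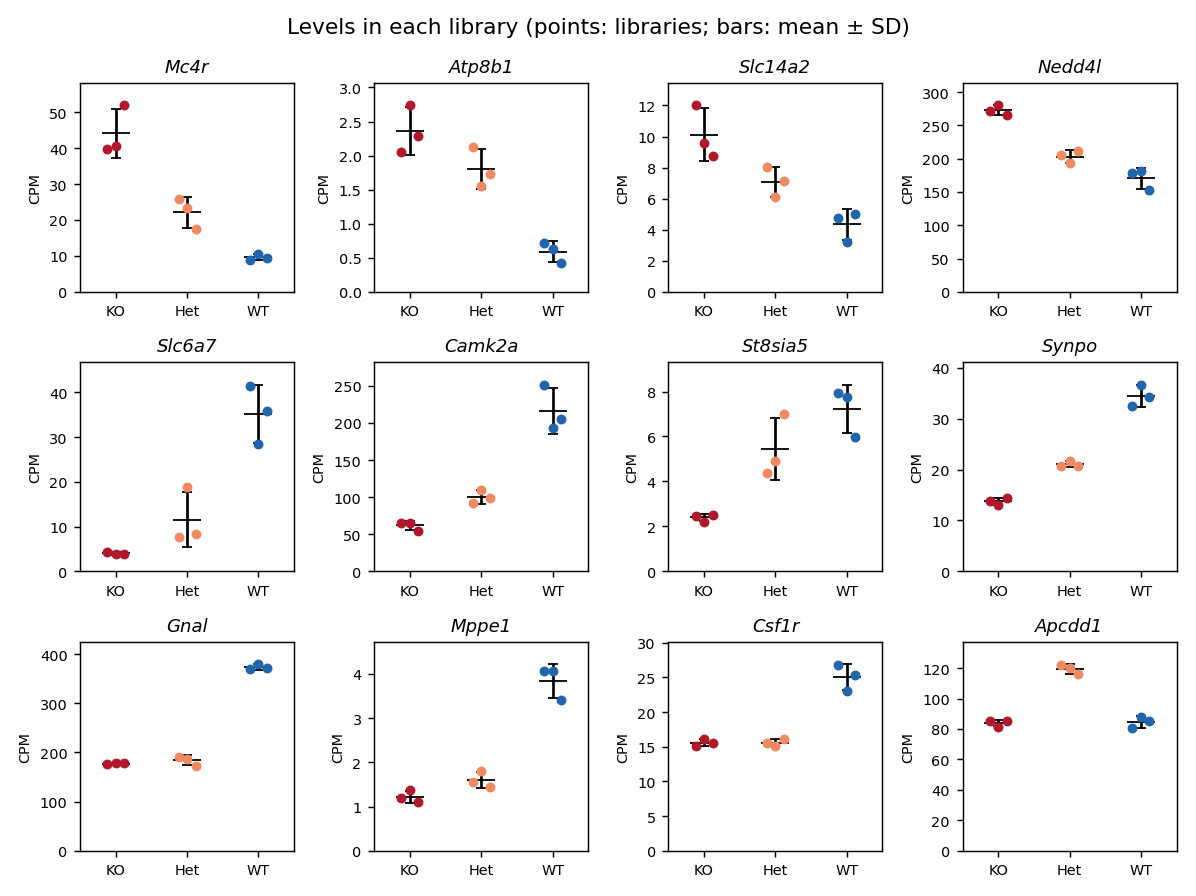
CPM of 12 flanking genes in each library, with 1 point per library and bars for the mean and SD of 3 KO (dark red), 3 Het (orange) and 3 WT (blue) libraries. The genotypes of Mc4r, Slc14a2, Nedd4l, Slc6a7, Camk2a, Synpo and Mppe1 do not overlap and follow the order of labelled dose. Gnal, Csf1r and Atp8b1 overlap between KO and Het, St8sia5 overlaps between Het and WT, and Apcdd1 is highest in Het.

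SMAD signalling genes, which carry TGF-beta and BMP signals to the nucleus, held 3 calls in KO versus WT. Of 7 tested, 2 were higher (Nedd4l and Rnf165) and 1 lower (Ldlrad4) in KO versus WT (42.9% called, beside 54.1% of protein-coding genes), with a median of 0.01. Het versus WT had 1 higher and 2 lower (42.9%, beside 47.2%) with a median of 0.07, and in KO versus Het the 1 called gene (14.3%, beside 17.8%) was higher, with a median of -0.01. Smad2, a receptor-regulated SMAD, had 50.7, 50.5 and 53.3 CPM in KO, 56.7, 53.1 and 53.1 in Het and 53.8, 54.8 and 55.6 in WT libraries and a KO versus WT value of -0.09 with a 95% interval of -0.22 to 0.04. It was not called in any comparison.

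Immune, vascular and stromal genes showed both directions. Of 10 tested, 4 were higher and 2 lower in KO versus WT (60% called, beside 54.1% of protein-coding genes), with a median of -0.01. In Het versus WT 5 were higher and 1 lower (60%, beside 47.2%), with a median of 0.44. In KO versus Het the 4 called genes (40%, beside 17.8%) were lower, with a median of -0.13. Csf1r (chromosome 18, 61100598 to 61132149, plus strand), the growth factor receptor that microglia need to survive, had 15.1, 16.1 and 15.5 CPM in KO libraries, 15.6, 15.1 and 16.1 CPM in Het libraries and 26.7, 23.1 and 25.4 CPM in WT libraries. KO and Het libraries overlapped and lay below every WT library. The log2 fold change was -0.69 (adjusted p = 2.4e-06, SE 0.08) for KO versus WT and -0.68 (adjusted p = 4.3e-06, SE 0.08) for Het versus WT.

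Most of the 10 microglia markers were, like Csf1r, lower in both mutant genotypes than in WT. The 10 summed to 72.0 to 79.7 CPM in KO, 64.2 to 66.4 CPM in Het and 116 to 127 CPM in WT libraries. Of them, 7 were called lower in KO versus WT and 8 in Het versus WT. Unlike Csf1r, their sums did not overlap between KO and Het, and 3 markers were called higher in KO than in Het. Csf1r also overlaps Hmgxb3 on the opposite strand and shares 14.9% of its words with other genes. The part of microglia in the Csf1r change was not tested.

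Lipg and Apcdd1 were highest in Het. Lipg (chromosome 18, 74939322 to 74961263, minus strand), the endothelial lipase, had 12.9, 13.4 and 15.3 CPM in KO libraries, 25.6, 21.7 and 20.02 CPM in Het libraries and 9.48, 12.3 and 9.86 CPM in WT libraries, with the Het libraries above both other genotypes. The change was 1.09 (adjusted p = 1.7e-06, SE 0.12) for Het versus WT and -0.69 (adjusted p = 0.00046, SE 0.11) for KO versus Het. The smaller KO versus WT change of 0.39 (adjusted p = 0.011, SE 0.12) was lost without KO replicate 3, WT replicate 1 or WT replicate 3 (adjusted p = 0.052 to 0.064). Apcdd1 (chromosome 18, 62922231 to 62961179, plus strand), a Wnt inhibitor made by brain endothelium, had 85.3, 81.3 and 84.97 CPM in KO libraries, 122, 120.3 and 116 CPM in Het libraries and 80.7, 87.97 and 85.3 CPM in WT libraries. It was higher in Het than in WT at 0.50 (adjusted p = 8.7e-07, SE 0.05), and KO versus WT was -0.01 with a 95% interval of -0.12 to 0.10. Afap1l1, an actin-associated protein, was higher in KO at 0.37 (adjusted p = 0.0093, SE 0.11) and in Het at 0.55 (adjusted p = 0.00056, SE 0.11).

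Pdgfrb, the growth factor receptor of pericytes, was not called in any comparison, with 33.4, 29.97 and 32.9 CPM in KO, 29.4, 27.6 and 29.6 in Het and 32.8, 32.6 and 30.8 in WT libraries. The summed levels of vascular markers were higher in every KO and Het library than in any WT library. The 8 endothelial markers summed to 192 to 201 CPM in KO, 200 to 220 CPM in Het and 175 to 178 CPM in WT libraries, and the 10 pericyte and mural markers to 183 to 201 CPM in KO, 190 to 199 CPM in Het and 121 to 132 CPM in WT libraries. Rgs5, a regulator of G protein signalling in pericytes, averaged 108 CPM in KO, 98.9 in Het and 43.1 in WT libraries, and the 9 pericyte and mural markers without it summed to 83.1 to 86.03 CPM in KO, 92.3 to 98.01 CPM in Het and 78.6 to 85.5 CPM in WT libraries, so that KO overlapped WT, a sum chosen after values had been seen. In KO versus WT 4 endothelial markers were higher and 1 lower, as were 3 and 1 of the pericyte and mural markers. In Het versus WT the 6 endothelial and the 6 pericyte and mural markers called were higher. The part of vascular cells in the changes of Lipg, Apcdd1 and Afap1l1 was not tested. Arsi, an arylsulfatase at under 3 CPM, was higher in KO at 0.84 (adjusted p = 0.0075, SE 0.24), a call lost without KO replicate 1 (adjusted p = 0.052).

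The urea transporter gene Slc14a2 had the largest rise on the distal side. Slc14a2 (chromosome 18, 78146148 to 78596942, minus strand), known from the kidney, lies 8.46 Mb from Tcf4 and had 12.03, 9.597 and 8.73 CPM in KO libraries, 8.03, 6.09 and 7.12 CPM in Het libraries and 4.79, 3.21 and 5.04 CPM in WT libraries. The genotypes did not overlap, and the change was 1.22 (adjusted p = 2.2e-05, SE 0.17) for KO versus WT and 0.70 (adjusted p = 0.0041, SE 0.18) for Het versus WT. KO versus Het, at 0.52 (adjusted p = 0.042, SE 0.17), was lost without KO replicate 1 or 2, Het replicate 2 or 3, or WT replicate 1 (adjusted p = 0.0502 to 0.23).

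Secretory, endosomal and trafficking genes had more lower than higher calls in KO versus WT. Of 12 tested, 2 were higher and 6 lower (66.7% called, beside 54.1% of protein-coding genes) with a median of -0.17, and 2 were higher and 4 lower in Het versus WT (50%, beside 47.2%) with a median of -0.09. In KO versus Het the 1 called gene (8.33%, beside 17.8%) was lower, with a median of -0.13. The lower genes in KO versus WT included Rab27b and Mppe1, given above, and Napg, a SNAP protein of membrane fusion, with 46.3, 48.3 and 50.3 CPM in KO, 53.2, 56.1 and 50.7 in Het and 71.5, 66.5 and 68.99 in WT libraries. Napg changed by -0.52 (adjusted p = 3.5e-06, SE 0.06) in KO versus WT and -0.37 (adjusted p = 0.00015, SE 0.06) in Het versus WT, and its genotypes did not overlap. Atp8b1 (chromosome 18, 64528967 to 64661267, minus strand), a phospholipid flippase, went the other way from a low level, with 2.06, 2.74 and 2.29 CPM in KO libraries, 2.13, 1.56 and 1.73 CPM in Het libraries and 0.723, 0.624 and 0.4304 CPM in WT libraries. KO and Het libraries overlapped and all lay above the WT libraries. The change was 3.97-fold for KO versus WT (1.99 (adjusted p = 6.9e-06, SE 0.26)) and 3.03-fold for Het versus WT (1.60 (adjusted p = 0.00013, SE 0.27)).

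Mitochondrial and metabolic genes were called in KO versus WT about as often as protein-coding genes, and no called change reached 1.5-fold there. Of 16 tested, 2 were higher and 7 lower (56.2% called, beside 54.1%) with a median of -0.14, and 4 were higher and 6 lower in Het versus WT (62.5%, beside 47.2%) with a median of -0.14. The called change of at least 1.5-fold in Het versus WT was that of Ppargc1b, a transcriptional coactivator of mitochondrial genes, at -0.87 (adjusted p = 0.016, SE 0.28), a call lost without Het replicate 2 or 3 or WT replicate 1 (adjusted p = 0.074 to 0.090), and in KO versus Het that of Cidea, given above. In KO versus Het 1 was higher and 2 lower (18.8%, beside 17.8%) with a median of -0.09. Pcyox1l, related to an enzyme that breaks down prenylated cysteine, had 20.6, 19.6 and 21.02 CPM in KO, 21.8, 21.99 and 22.1 in Het and 26.01, 30.3 and 29.1 in WT libraries, with -0.48 (adjusted p = 5.8e-05, SE 0.08) for KO versus WT and -0.38 (adjusted p = 0.00074, SE 0.08) for Het versus WT. Me2, the mitochondrial malic enzyme, was lower in KO at -0.36 (adjusted p = 0.0056, SE 0.10). Ndst1, which sulfates heparan sulfate, was lower in KO at -0.24 (adjusted p = 0.0013, SE 0.05), and its Het versus WT change of -0.15 (adjusted p = 0.037, SE 0.05) was lost without any 1 of the 9 libraries but Het replicate 3 (adjusted p = 0.054 to 0.24).

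Chromatin, RNA and translation genes had the lowest share of calls of the 7 lists in KO versus WT. Of 18 tested, 4 were higher and 2 lower (33.3% called, beside 54.1% of protein-coding genes), with a median of 0.11. Het versus WT had 6 higher and 2 lower (44.4%, beside 47.2%) with a median of 0.11, and KO versus Het 1 higher and 3 lower (22.2%, beside 17.8%) with a median of 0.05. Setbp1 (chromosome 18, 78750380 to 79109391, minus strand), a chromatin protein whose human counterpart is mutated in Schinzel-Giedion syndrome and the farthest tested gene at 9.06 Mb, had 204, 227 and 189.6 CPM in KO libraries, 145, 157 and 171 CPM in Het libraries and 148, 137 and 141 CPM in WT libraries. KO libraries were above all others, with 0.54 (adjusted p = 8.2e-06, SE 0.07) for KO versus WT and 0.39 (adjusted p = 0.001, SE 0.07) for KO versus Het. Het versus WT was 0.15 (adjusted p = 0.095), and without Het replicate 1 it was 0.22 with adjusted p = 0.023. Mex3c, an RNA-binding ubiquitin ligase, had 68.2, 72.7 and 74.1 CPM in KO, 70.3, 63.7 and 56.1 in Het and 40.5, 44.4 and 41.4 in WT libraries, with 0.77 (adjusted p = 3.4e-07, SE 0.08) for KO versus WT and 0.59 (adjusted p = 1.1e-05, SE 0.08) for Het versus WT.

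Cell division and centrosome genes were called about as often as protein-coding genes in KO versus WT. Of 10 tested, 4 were higher and 1 lower (50% called, beside 54.1%), with a median of 0.06, and in Het versus WT the 3 called genes (30%, beside 47.2%) were higher, with a median of 0.24. In KO versus Het the 1 called gene (10%, beside 17.8%) was lower, with a median of -0.04. Beside Cep192, the higher genes were Haus1, a subunit of the augmin complex that branches spindle microtubules, at 0.43 (adjusted p = 0.0067, SE 0.12), the kinetochore gene Ska1 at 0.93 (adjusted p = 0.0081, SE 0.27) and the katanin-like severing gene Katnal2 at 0.79 (adjusted p = 0.0044, SE 0.21). The lower one was Pmaip1, which encodes the cell death protein Noxa, at -0.83 (adjusted p = 0.0095, SE 0.25), a call lost without WT replicate 2 (adjusted p = 0.078). Haus1 overlaps Atp5a1 on the opposite strand. Fbxo38, an F-box protein of a ubiquitin ligase, belongs to none of the role lists and was higher in both mutants, at 0.69 (adjusted p = 4.1e-07, SE 0.07) for KO versus WT and 0.52 (adjusted p = 1.4e-05, SE 0.07) for Het versus WT, with 50.1, 54.2 and 48.04 CPM in KO, 47.3, 45.7 and 42.95 in Het and 31.4, 31.7 and 31.3 in WT libraries.

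**Figure D5:**
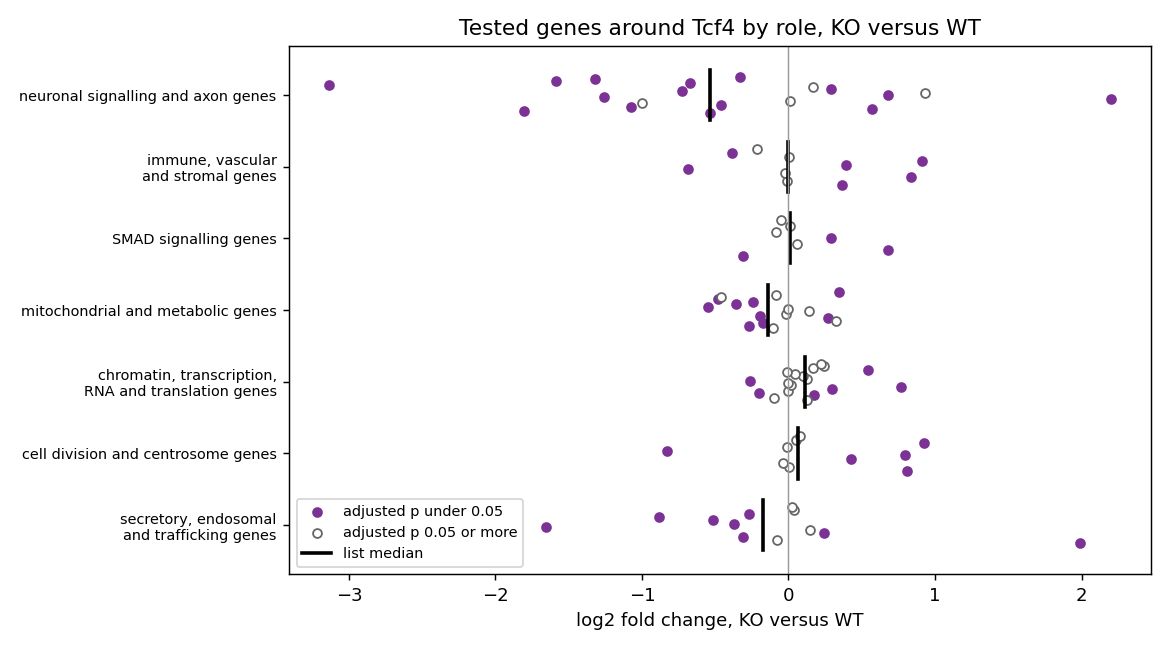
Log2 fold change in KO versus WT of each tested flanking gene, grouped by role, with filled points for adjusted p under 0.05 and a black bar at the median of each list. Neuronal signalling and axon genes have the lowest median at -0.53, and the other medians lie between -0.17 and 0.11. The lists were chosen with earlier results of these data known.

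Flanking genes followed the labelled dose about as often as protein-coding genes did. The Het mean lay between the KO and WT means in 51 of the 101 genes (50.5%), beside 50.1% of protein-coding genes. In 12 (11.9%) the 3 genotypes did not overlap and stood in dose order, beside 11.0% of protein-coding genes. These were Fbxo38, Nedd4l, Mc4r, Cep192 and Slc14a2 with KO highest, and Synpo, Camk2a, Slc6a7, Pcyox1l, Napg, St8sia3 and Mppe1 with KO lowest. Protein-coding genes gave 5.47% with KO highest and 5.54% with KO lowest.

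Het libraries stood outside both other genotypes in a further group, a pattern looked at after values had been seen. In 11 genes (10.9%) every Het library was above every KO and WT library, beside 5.09% of protein-coding genes. Of the 62 tested proximal genes 8 did so (12.9%), and of the 39 distal genes 3 (7.69%). The 11 genes were Apcdd1, Fech, Nars, Grp, Lman1, Ccbe1, Ptpn2, Seh1l, Dcc, Smad4 and Lipg. In 6 genes (5.94%), Pdgfrb, Ablim3, Txnl1, Cidea, Prelid3a and Smad7, every Het library was below both, beside 5.18% of protein-coding genes. No test was made of these counts, and the 3 comparisons share their libraries.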

How the data were processed

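Total RNA of newborn mouse dorsal telencephalon was measured in 9 libraries, 3 for each labelled genotype. The deposited files hold raw read counts for each gene and FPKM values. Per the submitters' processing notes, the build was mm10 and the tools were HTSeq 0.6.1, TopHat2 2.0.9, DESeq 1.10.1 and Bowtie2 2.0.6, with no role stated. The treatment of multi-mapped reads and of strand was not given in the sources used here. The deposited FPKM values equal counts divided by 1 gene length and the library total (largest log2 difference 1.42e-14), so they add no measurement.

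Counts of 15271 genes that passed edgeR's filterByExpr (minimum count 10, minimum total 15), holding 99.95% of all counts, were fitted in edgeR 4.0.16 (R 4.3.3) with TMM factors and the robust quasi-likelihood test. All 9 libraries entered 1 fit with a coefficient per genotype and 6 residual degrees of freedom. Adjusted p-values are Benjamini-Hochberg values over all genes tested, and intervals of a fold change cover 95%. The procedure was tested on simulated data. Positions, strand overlap and shared 31-base words came from GENCODE M21, with which 40254 of 41128 rows were paired. Figures were drawn with matplotlib 3.10.9.

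Alternatives were other scaling factors, filters, DESeq2 1.42.0, limma 3.58.1 on log2(FPKM + 1) and log2(FPKM + 0.1), a replicate block, a fit of only the genotypes compared, a fold of 1.5, genes within 5 Mb, leaving out each library and, chosen after seeing the data, genes with under 5% shared words and no opposite-strand overlap. The window, role lists and marker lists were chosen with earlier results of these data known. Within the window, members were taken by position alone. The rule for named genes took all tested genes within 2 Mb, the largest folds without overlap among called genes with a mean log2 CPM of at least 1 (8 in each direction for KO versus WT, 4 otherwise), and the 4 smallest p-values of each role list, 48 genes in all. Of these, some values were left out. Apcdd1, Pdgfrb, Pmaip1, Ppargc1b, Rps14, Rpl17, Htr4, Oacyl, the untested genes and those listed only by order of genotypes lie outside the rule and were chosen after values were seen.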

Additional observations from a re-analysis of the deposited data

How the results depend on the processing

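Of the calls, 37 of 54 for KO versus WT, 31 of 50 for Het versus WT and 12 of 21 for KO versus Het held under every scaling, filter, tool, block and left-out library tried, and no called gene changed sign. For the 48 named genes, 6 of 38 calls were lost under some alternative for KO versus WT, 7 of 30 for Het versus WT and 4 of 14 for KO versus Het. Scaling to library totals or upper quartiles moved the median of all tested genes by under 0.1 on the log2 scale.

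Requiring a fold of 1.5 left 25 calls for KO versus WT (13 higher, 12 lower), 17 for Het versus WT (8 and 9) and 9 for KO versus Het (2 and 7), by its construction. The 47 tested genes within 5 Mb held 28 (13 and 15), 26 (18 and 8) and 11 (3 and 8). The 69 tested genes with under 5% shared words and no opposite-strand overlap held 38 (19 and 19), 32 (18 and 14) and 13 (4 and 9). These sets are parts of the 101 tested genes. Of all tested protein-coding genes, 54.1%, 47.2% and 17.8% were called in the 3 comparisons. Without a filter on low counts, KO versus Het had 8 higher calls.

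Leaving out 1 library gave 44 to 59 calls for KO versus WT (18 to 28 higher, 25 to 31 lower), 40 to 52 for Het versus WT (22 to 31 higher, 14 to 22 lower) and 13 to 24 for KO versus Het (3 to 8 higher, 9 to 17 lower). Without Het replicate 2, Het versus WT had 14 lower calls. The rho of change with distance in KO versus WT ran from -0.014 to 0.061 over the left-out libraries, and was 0.0051 with no filter, 0.0046 with limma on log2(FPKM + 1) and -0.0071 with limma on log2(FPKM + 0.1). Tcf4 was -0.20 to -0.046 for KO versus WT, and -0.31 to -0.14 for KO versus Het over the left-out libraries. For KO versus Het it was -0.22 (adjusted p = 0.038) with no filter and -0.23 (adjusted p = 0.043) with only these genotypes. The cause of these shifts was not tested.

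The labels do not say whether replicate numbers pair the samples. Same-numbered libraries shared little deviation from their group means, which does not settle whether they were paired. The correlation of same-numbered deviations ran from -0.11 to 0.084. With a replicate block KO versus WT had 55 calls (24 higher, 31 lower), Het versus WT 48 (28 and 20) and KO versus Het 19 (5 and 14). The Tcf4 values were -0.10, 0.12 and -0.22 in the same order, and the rho was 0.026.

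Limma on log2(FPKM + 1) shrinks low genes, giving 0.33 for Atp8b1, 0.46 for Cep192, -0.84 for Mppe1, -1.05 for St8sia5 and -0.54 for Rab27b in KO versus WT. The KO versus WT call of Dcc was lost with no filter (adjusted p = 0.067) and with only the compared genotypes (0.071), and that of Psmg2 with upper-quartile factors (0.056), library totals (0.078) and limma (0.052 and 0.053). In Het versus WT, Rnmt was lost with DESeq2 (adjusted p = 0.058) and the block (0.062), and Mbd2 with only the compared genotypes (0.053). Ndst1 was lost there with upper-quartile factors, library totals, limma, no filter, the block and only the compared genotypes (0.065 to 0.19). The KO versus Het call of Slc14a2 was lost with library totals (0.055) and limma (0.067 and 0.090). Spire1 was called in Het versus WT with upper-quartile factors (0.15, adjusted p = 0.017) and library totals (0.17, adjusted p = 0.0097). Counts were few in genes under about 1 CPM, such as Stard6, whose SE was 0.44 to 0.47. The part of depth in that SE was not tested.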
